A study of Mus musculus with 8 samples.

Results

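The MHC class II presentation genes were followed here in mixed co-cultures of mouse spleen cells and colon cancer cells. The group holds 10 genes, found by their gene names among the 52636 gene IDs of the expression tables, and each was present as 1 gene ID. They are Cd74, H2-Aa, H2-Ab1, H2-Eb1, H2-DMa, H2-DMb1, H2-DMb2, H2-Oa, H2-Ob and Ciita. The 4 trogocytic co-cultures held sorted trogocytic colon cancer cells, sorted on the tdTomato tumour reporter and on CD4 protein, the coreceptor of helper T cells. The 4 non-trogocytic co-cultures, the control, held the cancer cells sorted as non-trogocytic. In both groups the cancer cells came from liver metastases of tdTomato colon cancer organoids given by splenic injection. Both groups were kept for 5 days with syngeneic C57BL/6 splenocytes from Actin-GFP reporter mice, at 1 cancer cell to 50 splenocytes. Trogocytosis is the transfer of membrane pieces, with their proteins, from a donor cell to another cell. Animal age, the number of organoid lines and whether replicates came from separate animals are not given in the labels, so the replicate spread behind each p-value may be technical. RNA was taken from the whole mixture, so every level below sums over splenocytes and cancer cells.

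MHC class II molecules are heterodimers of an alpha and a beta chain that show peptides from endosomes to CD4+ T cells. The invariant chain Cd74 fills the peptide groove of a new dimer and steers it to endosomes, where proteases trim the chain to the short CLIP peptide. The DM heterodimer then swaps CLIP for other peptides, and the DO heterodimer, best known from B cells, holds DM back. In the spleen, B cells and dendritic cells carry class II at rest, macrophages raise it under interferon gamma, and mouse T cells make little or none. Transcription depends on the coactivator CIITA, which does not touch DNA itself but docks on proteins bound to paired promoter elements, RFX on the X element and NF-Y on the Y element. In the coordinates of the deposited tables, H2-DMa, H2-DMb1, H2-DMb2, H2-Oa, H2-Ob, H2-Aa, H2-Ab1 and H2-Eb1 lie together on chromosome 17 between the start of H2-Oa at 34092340 and the end of H2-Eb1 at 34316199, while Cd74 and Ciita lie elsewhere.

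The shared X and Y elements are what puts the genes of the chromosome 17 cluster in a common regulatory group, so the stretch that holds both cores is shown for each promoter in which they were found. The promoters are those of RefSeq on GRCm38.p6, from 250 bases before to 50 bases after the start site, on the strand of the gene. Capitals mark the core AAC of the X element and the core GATTGG of the Y element.
H2-Aa, chr17:34287859-34287910, minus strand: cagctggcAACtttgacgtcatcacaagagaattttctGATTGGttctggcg
H2-Eb1, chr17:34305770-34305820, plus strand: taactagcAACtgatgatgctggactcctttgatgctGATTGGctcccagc
H2-DMb1, chr17:34153091-34153142, plus strand: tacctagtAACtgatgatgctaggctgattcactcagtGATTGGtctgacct
H2-DMb2, chr17:34145120-34145171, plus strand: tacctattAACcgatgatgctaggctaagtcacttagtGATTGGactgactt
H2-Oa, chr17:34092297-34092348, plus strand: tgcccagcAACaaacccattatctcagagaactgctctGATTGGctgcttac
H2-Ob, chr17:34238812-34238860, plus strand: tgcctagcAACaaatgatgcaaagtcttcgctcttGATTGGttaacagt

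The table of promoters held 7 of the 10 genes, the 6 above and H2-DMa, and Cd74, H2-Ab1 and Ciita were not matched. The letters AAC followed by GATTGG after a gap of 24 to 28 bases, on either strand, were present in 6 of the 7 genes, against 1.11% of all 32851 promoters. That gap range was set after these promoters had been read, so the share is a description only. GATTGG alone was present in all 7, against 16.1% of all promoters, and H2-DMa, whose 2 listed starts both lie upstream of its start in the deposited tables, had it without the spaced AAC. The gap was 27 bases in H2-Aa, H2-DMb1, H2-DMb2 and H2-Oa, 26 in H2-Eb1 and 24 in H2-Ob. A match of letters is not a measured binding site. The start sites of RefSeq and of the deposited tables differ for several of these genes, and the stretches of H2-DMb1 and H2-DMb2 lie inside the gene spans of the tables.

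**Figure D1:**
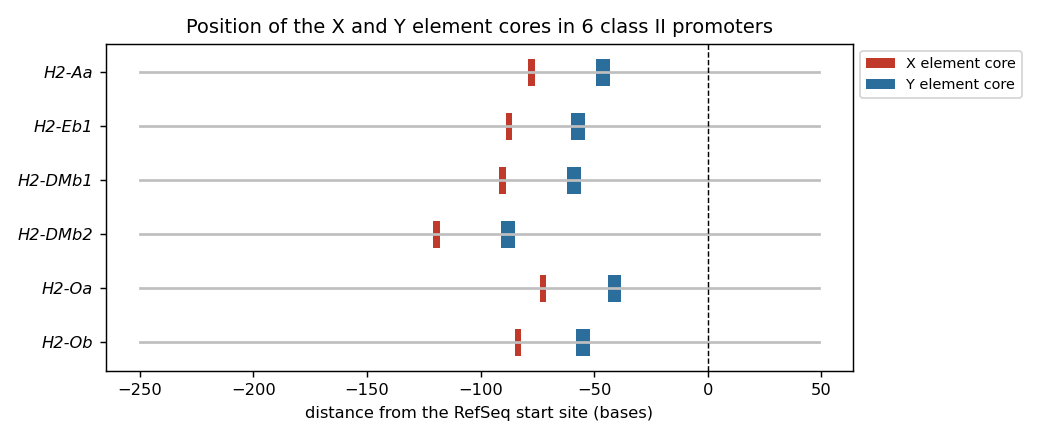
Distance in bases of the X core (red) and the Y core (blue) from the RefSeq start site (dashed line) in 6 class II promoters, with the scanned window as a grey line. The Y core begins between 44 and 91 bases before the start site and the X core lies 24 to 27 bases further out.

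Libraries held 1.39 to 1.84 Gb of aligned bases, which puts 2.92 to 4.23 read pairs behind each TPM per kb of transcript, and 10867 to 12362 genes had at least 1 TPM. TPM is a transcript level scaled by gene length and to the same total in every library. In the fit over all 11433 genes with at least 1 TPM in 4 or more libraries, 6 genes (0.0525%) were called by limma at an adjusted p below 0.05, 2 higher (0.0175%) and 4 lower (0.035%) in trogocytic co-cultures. Cell-type markers differed more between libraries than between groups. B cell markers (7 tested genes) and T cell markers (10 tested genes) were highest in trogocytic replicates 1 and 4 and non-trogocytic replicate 1, with T cell levels of 6.07, 5.46 and 5.27 on the log2 scale in these, against 2.71 to 4.62 in the other libraries. Summed macrophage and monocyte markers spanned 1687 to 5416 TPM in trogocytic and 3435 to 15050.5 TPM in non-trogocytic co-cultures. Most of that sum was Lyz2, also a gene of neutrophils, at 1175 to 3846 TPM in trogocytic and 2636 to 12057 TPM in non-trogocytic co-cultures. Csf1r of the same list stood at 0.175 to 0.630 and, in non-trogocytic co-cultures, 0.727 to 4.88 TPM, and did not pass the filter. The mean log2 level used further below counts each tested marker alike. Of 10 dendritic cell markers, Xcr1 and Clec9a, which define cross-presenting dendritic cells, were listed at 0 in all libraries, and only 3 passed the filter on low values. The labelled makeup, spleen cells with epithelial cancer cells, was met by markers in every library, with summed B cell markers at 86.4 to 421 TPM in trogocytic and 62.6 to 312 TPM in non-trogocytic co-cultures and summed epithelial markers at 5411 to 7088 and, in non-trogocytic co-cultures, 3367 to 9118 TPM. Fewer cells of a type and less RNA per cell cannot be told apart in any of these values.

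Cd74, the invariant chain, was by far the most abundant of the 10 genes. It lies on chromosome 18 from 60803848 to 60812646 on the plus strand. Its level was 2404, 602, 669 and 1825 TPM in trogocytic replicates 1 to 4, and 1963, 801, 879 and 347 TPM in non-trogocytic replicates 1 to 4. Trogocytic replicates 1 and 4 and non-trogocytic replicate 1 formed the upper set, the other 5 libraries lay at 347 to 879 TPM, and the groups overlapped. It averaged 1375 ± 886 TPM in trogocytic and 998 ± 685 TPM in non-trogocytic co-cultures (SD, n = 4 each). The log2 fold change was 0.47 ± 0.55 (SE), with a 95% interval of -0.75 to 1.69, and limma's adjusted p was 0.9998. Among all genes of a library, Cd74 ranked 42, 347, 310 and 70 by TPM in trogocytic co-cultures and 62, 219, 227 and 614 in non-trogocytic ones. In this mixture the invariant chain was thus among the most abundant transcripts in the same 3 libraries of both groups.

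The classical chains came next. H2-Aa, the alpha chain of the I-A molecule, stood at 309, 118, 152 and 287 TPM in trogocytic and 249, 126, 169 and 70.2 TPM in non-trogocytic co-cultures. H2-Ab1, the beta chain that pairs with it, stood at 397, 94.4, 38.4 and 376 TPM in trogocytic and 305, 169, 142 and 44.1 TPM in non-trogocytic co-cultures. For both chains trogocytic replicates 1 and 4 and non-trogocytic replicate 1 were again the highest libraries, and the groups overlapped. The fold changes were 0.52 ± 0.41 for H2-Aa and 0.19 ± 0.77 for H2-Ab1 (log2, SE, n = 4 each, limma's adjusted p = 0.9998 for each). H2-Aa was the steadier of the pair, with a highest library 4.40 times its lowest, against 10.3 times for H2-Ab1.

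H2-Eb1, the beta chain of I-E, was lower. Its level was 105, 9.27, 23.3 and 34.5 TPM in trogocytic and 45.0, 13.4, 23.5 and 19.6 TPM in non-trogocytic co-cultures. Trogocytic replicate 1 stood above all other libraries and trogocytic replicate 2 below them, so the trogocytic range spanned the whole non-trogocytic one. The fold change was 0.37 ± 0.64 (log2, SE, limma's adjusted p = 0.9998). C57BL/6 mice carry a disabled I-E alpha gene and show no I-E on the surface. H2-Ea-ps, the name of that gene in the tables, was listed at 0 in all 8 libraries, so the I-E beta transcript was present without its partner. The related H2-Eb2 reached 4.28 TPM in trogocytic and 4.70 TPM in non-trogocytic co-cultures and did not pass the filter.

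The share of the invariant chain was more even than the level of the family. Summed over the 10 genes, class II transcripts came to 3344, 855, 899 and 2631 TPM in trogocytic and 2651, 1196, 1259 and 526 TPM in non-trogocytic co-cultures. Cd74 made up 69.3% to 74.4% of that sum in trogocytic and 66.0% to 74.0% in non-trogocytic co-cultures. Over the sum of H2-Aa, H2-Ab1 and H2-Eb1 it stood at a ratio of 2.61 to 3.14 in trogocytic and 2.60 to 3.27 in non-trogocytic co-cultures. The family sum thus moved more than 6-fold over the libraries by the values above, while the share of the invariant chain stayed between 66.0% and 74.4%. Ratios among the classical chains were less even. That of H2-Ab1 to H2-Aa ran from 0.254 in trogocytic replicate 3 to 1.34 in non-trogocytic replicate 2, and that of H2-Eb1 to H2-Ab1 from 0.606 in trogocytic replicate 3 to 0.0795 in non-trogocytic replicate 2.

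**Figure D2:**
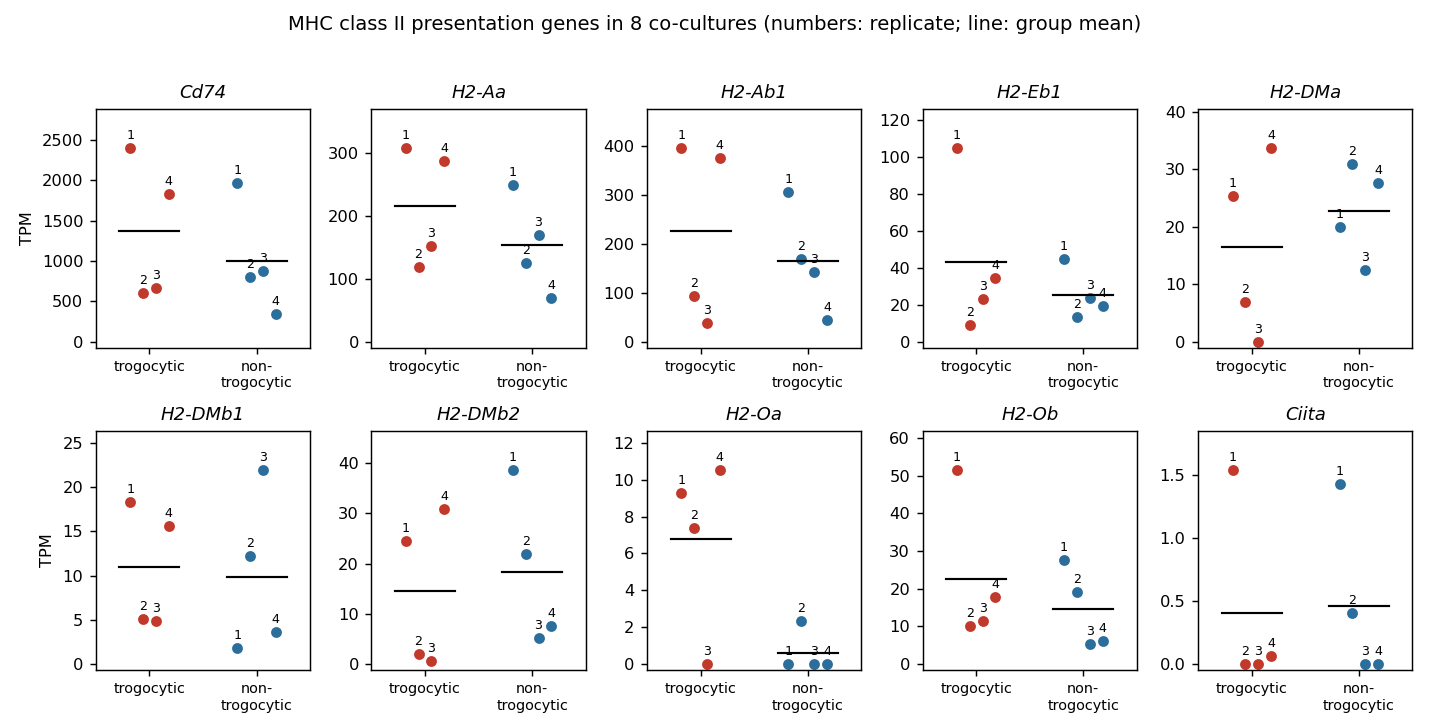
TPM of each of the 10 class II genes (panels, linear axes from 0 with a scale of their own) in the 4 trogocytic (red) and 4 non-trogocytic (blue) libraries, numbered by replicate, with the group mean as a line. For Cd74, H2-Aa, H2-Ab1, H2-Eb1 and H2-DMb2 the 3 highest points are trogocytic replicates 1 and 4 and non-trogocytic replicate 1, and in no panel do the groups separate.

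The chains of the peptide editor DM lay well below those of I-A. H2-DMa, its alpha chain, stood at 25.3, 6.85, 0 and 33.8 TPM in trogocytic and 20.05, 31.0, 12.4 and 27.5 TPM in non-trogocytic co-cultures. It was listed at 0 in trogocytic replicate 3, where none of 15 housekeeping genes was at 0, and its spread was wider in trogocytic co-cultures (SD of 15.7 TPM) than in non-trogocytic ones (SD of 8.25 TPM), a difference that was not tested. Its fold change was -1.29 ± 0.96 (log2, SE, limma's adjusted p = 0.9998), and -0.22 without trogocytic replicate 3. H2-DMb2, a beta chain, stood at 24.4, 1.98, 0.540 and 30.8 TPM in trogocytic and 38.7, 21.9, 5.24 and 7.61 TPM in non-trogocytic co-cultures, with a fold change of -0.93 ± 1.009, and -0.15 without trogocytic replicate 3. For both genes trogocytic replicates 2 and 3 held the lowest levels, trogocytic replicate 4 was among the 2 highest, and the groups overlapped.

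H2-DMb1, the second beta chain, had another order of libraries. It stood at 18.3, 5.03, 4.89 and 15.7 TPM in trogocytic and 1.76, 12.2, 22.0 and 3.63 TPM in non-trogocytic co-cultures. Non-trogocytic replicate 1, the highest library for H2-DMb2, was the lowest for H2-DMb1. The fold change was 0.39 ± 0.73 (log2, SE, limma's adjusted p = 0.9998). The longest transcripts of H2-DMb1 and H2-DMb2 are 94.3% identical where they align, share a run of 221 bases and have 13.7% of their 100-base windows in common, so the split of reads between the pair is uncertain. Summed DM transcripts were 5.43 to 80.3 TPM in trogocytic and 38.8 to 65.1 TPM in non-trogocytic co-cultures, which is 2.55% to 11.5% of the summed H2-Aa, H2-Ab1 and H2-Eb1 in trogocytic and 10.1% to 29.0% in non-trogocytic co-cultures.

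DO, the modulator of DM, gave the member with the smallest p. H2-Oa, its alpha chain, stood at 9.28, 7.40, 0 and 10.5 TPM in trogocytic co-cultures, and at 0, 2.30, 0 and 0 TPM in non-trogocytic ones. Trogocytic replicates 1, 2 and 4 lay above every non-trogocytic library and trogocytic replicate 3 was listed at 0, so the groups overlapped. The fold change was 2.06 ± 0.80 on the log2(TPM + 1) scale, with an interval of 0.30 to 3.82 and an unadjusted p of 0.0259, and limma's adjusted p over all tested genes was 0.9998. At 2.92 to 4.23 read pairs per TPM per kb of transcript, the lower of these levels rest on few reads. H2-Ob, the beta chain, was detected in every library, at 51.5, 10.1, 11.4 and 17.7 TPM in trogocytic and 27.6, 19.1, 5.37 and 6.11 TPM in non-trogocytic co-cultures. Trogocytic replicate 1 was the highest and the groups overlapped, with a fold change of 0.59 ± 0.64 (log2, SE, limma's adjusted p = 0.9998).

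The ratio of summed DO to summed DM was 0.893, 1.26, 2.09 and 0.352 in trogocytic and 0.457, 0.330, 0.135 and 0.158 in non-trogocytic co-cultures. Trogocytic replicates 1 to 3 lay above all non-trogocytic libraries, and trogocytic replicate 4 lay within their range. The largest ratio, in trogocytic replicate 3, stood on the lowest DM sum, 5.43 TPM. This ratio was formed after the values had been seen and was not tested.

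Ciita, the class II coactivator on chromosome 16 from 10488178 to 10527564, was close to the limit of detection. It was 1.54, 0, 0 and 0.0623 TPM in trogocytic and 1.43, 0.404, 0 and 0 TPM in non-trogocytic co-cultures. The highest library of each group was its replicate 1, 4 libraries were listed at 0, and the gene did not pass the filter, so it has no fold change. Dexi, which overlaps Ciita on the opposite strand, averaged 0.678 TPM, and the strand setting of the counting is not given in the sources used here, so reads of the pair may not be separable.

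None of the 9 tested members was called, against 0.0525% of all tested genes. At an unadjusted p below 0.05 there was 1 of 9, H2-Oa, against 4.59% of all tested genes. In no member were the groups free of overlap, against 2.68% of all tested genes. Fold changes were above 0 for 7 of 9, against 50.7% of all tested genes, and their median was 0.39, against 0.01 over all tested genes. Every interval other than that of H2-Oa included 0, and the interval of H2-Aa, the narrowest, ran from -0.40 to 1.44 on the log2 scale. At this spread between libraries, differences anywhere within these intervals remain compatible with the data.

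**Figure D3:**
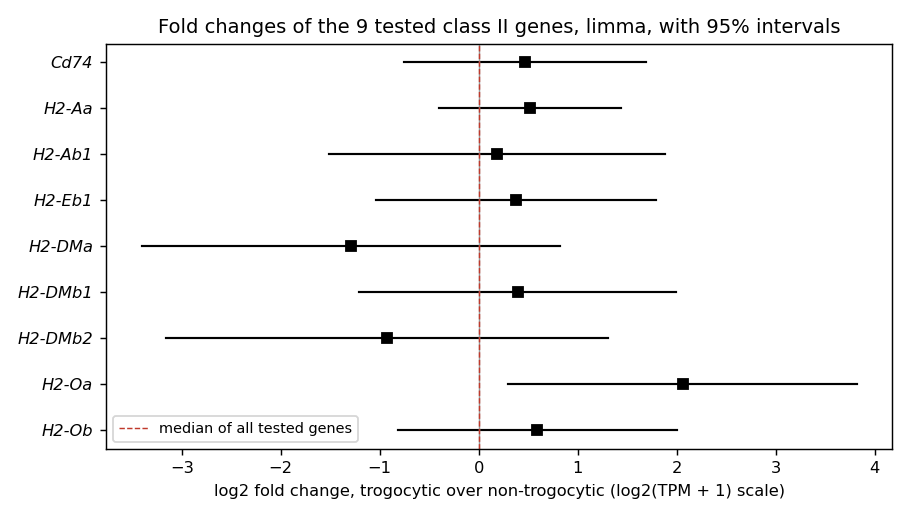
Log2 fold change of the 9 tested class II genes, trogocytic over non-trogocytic, on the log2(TPM + 1) scale from limma, with 95% intervals (n = 4 libraries per group) and the median of all tested genes as a dashed line at 0.01. All intervals other than that of H2-Oa cross 0. That of H2-Oa, a gene listed at 0 in 4 libraries, runs from 0.30 to 3.82.

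By median TPM over the 8 libraries, a level per gene length, the order was Cd74 (840), H2-Aa (160), H2-Ab1 (155), H2-Eb1 (23.4), H2-DMa (22.7), H2-DMb2 (14.8), H2-Ob (14.6), H2-DMb1 (8.61), H2-Oa (1.152) and Ciita (0.0312). Neighbours were set against each other within libraries. Cd74 exceeded H2-Aa in 8 of 8 libraries, by a mean of 2.55 with an SD of 0.31 on the log2 scale. H2-Ab1 exceeded H2-Eb1 in 8 of 8, by 2.40 with an SD of 1.06, and H2-DMb1 exceeded H2-Oa in 7 of 8, by 1.71 with an SD of 1.504. All other neighbours differed by less than their SD over libraries, so the family fell into 4 tiers, namely the invariant chain, the I-A chains, a middle tier of H2-Eb1, DM chains and H2-Ob, and the 2 lowest genes.

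Members varied together to unequal degrees. Over the 36 pairs of tested members, Pearson's r of log2(TPM + 1) over the 8 libraries ran from 0.09 to 0.97 with a median of 0.52, and 6 pairs reached at least 0.8. The closest pair was Cd74 with H2-Aa (r = 0.97), followed by Cd74 with H2-Ab1 (r = 0.91). H2-DMa went most closely with H2-DMb2 (r = 0.85), the chain that H2-DMb1 resembles in sequence, whereas H2-DMb1 with H2-DMb2 reached 0.16. These are descriptions over libraries that also share their leukocyte content.

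The genes whose levels most resembled those of Cd74, among tested genes with a mean of at least 5 TPM, were S1pr1, the sphingosine 1-phosphate receptor that lymphocytes use to leave lymphoid organs (r = 0.99), Baz2b (0.98), Wdr44 (0.98), Ppm1h (0.97) and Akap13 (0.97). S1pr1 stood at 37.0, 9.99, 10.3 and 37.2 TPM in trogocytic and 30.6, 10.4, 11.9 and 4.05 TPM in non-trogocytic co-cultures. Those most like H2-Ab1 were Icos, a costimulator of T cells (0.99), Tcf7, a transcription factor of naive T cells (0.98), Ltb, the lymphotoxin beta chain (0.98), Coro1a, a leukocyte actin regulator (0.97), and Tmem123 (0.97). Icos stood at 20.7, 1.98, 0.181 and 17.3 TPM in trogocytic and 14.9, 3.64, 5.21 and 0 TPM in non-trogocytic co-cultures, which are high in the same 3 libraries as the class II chains. Of all tested genes, 95 reached r of at least 0.9 with Cd74 and 71 with H2-Ab1.

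The relation of each member to the level of the cell types that carry class II was then measured over the 8 libraries, as the correlation with the mean log2(TPM + 1) of marker genes. With B cell markers, r was 0.88 for Cd74, 0.81 for H2-Aa, 0.85 for H2-Ab1, 0.91 for H2-Eb1, 0.81 for H2-DMb2, 0.73 for H2-Ob, 0.57 for H2-DMa, 0.36 for H2-DMb1 and 0.31 for H2-Oa. Spearman's rho was 0.93 for Cd74 and 0.90 for H2-Eb1. An r of at least 0.8 was reached by 5 of 9 members, against 2.28% of all tested genes. The exact permutation p, two-sided and unadjusted, was 0.00610 for Cd74 and 0.00146 for H2-Eb1, and was below 0.05 for 6 members. After Benjamini-Hochberg adjustment over the 11433 genes of this family of relations, no member and no other gene (0%) passed, with an adjusted p of 0.341 for Cd74 (exact permutation test).

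Leaving out trogocytic replicates 1 and 2, the libraries farthest from the median B cell level, kept r at 0.87 for Cd74, 0.77 for H2-Aa, 0.93 for H2-Ab1, 0.74 for H2-Eb1 and 0.83 for H2-DMb2, and gave 0.54 for H2-Ob and 0.06 for H2-DMb1. Without the first replicate of both groups r was 0.75 for Cd74, 0.66 for H2-Aa, 0.77 for H2-Ab1, 0.76 for H2-Eb1, 0.80 for H2-DMb2 and 0.26 for H2-Ob, and 0 members had an exact permutation p below 0.05 over those 6 libraries. After each group was centred on its mean, r was 0.90 for Cd74 and 0.92 for H2-Eb1. T cells, which make little class II in mice, gave values as high for Cd74, H2-Aa, H2-Ab1 and H2-Ob, but lower ones for H2-Eb1, H2-DMb2 and H2-DMa. With T cell markers r was 0.94 for Cd74, 0.92 for H2-Aa, 0.89 for H2-Ab1, 0.82 for H2-Ob and 0.65 for H2-Eb1, so 4 of 9 members were at 0.8 or above, against 3.10% of all tested genes, and the exact permutation p was below 0.05 for 4 members, with an adjusted p of 0.231 for Cd74. The remaining r with T cell markers was 0.66 for H2-Oa, 0.55 for H2-DMb2, 0.33 for H2-DMb1 and 0.27 for H2-DMa. B cell and T cell markers peaked in the same 3 libraries, and so did neutrophil markers. The neutrophil level was 6.63 to 6.84 on the log2 scale in these, against 4.36 to 5.82 in the other libraries. Relations to neutrophil markers were not measured. Which of these leukocyte levels the class II genes follow therefore cannot be told apart here.

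Macrophage markers gave another order of members, with 2 of the DM chains first. With the 13 tested macrophage and monocyte markers r was 0.54 for Cd74, 0.38 for H2-Aa, 0.67 for H2-Ab1 and 0.52 for H2-Eb1, and it was 0.77 for H2-DMa, 0.87 for H2-DMb2, 0.13 for H2-DMb1, 0.44 for H2-Ob and -0.10 for H2-Oa. That is 1 of 9 members at 0.8 or above, against 2.48% of all tested genes. The exact permutation p was 0.0216 for H2-DMa and 0.00451 for H2-DMb2, with adjusted p of 0.404 and 0.273. The macrophage relations of H2-DMa and H2-DMb2 rest on trogocytic replicates 2 and 3, without which r was -0.33 for H2-DMa and 0.48 for H2-DMb2. Without the first replicate of both groups r was 0.21 for Cd74, 0.83 for H2-DMa and 0.81 for H2-DMb2. Centring each group on its mean moved the relation of the classical chains to r = 0.92 for Cd74, 0.85 for H2-Aa, 0.92 for H2-Ab1 and 0.84 for H2-Eb1. With the group means removed, these genes went with macrophage markers about as closely as with B cell markers, and the groups were offset from each other in the level of class II genes at a like macrophage level. With the 3 tested dendritic cell markers r was at most 0.53 (H2-Ob), and no member had an exact permutation p below 0.05.

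**Figure D4:**
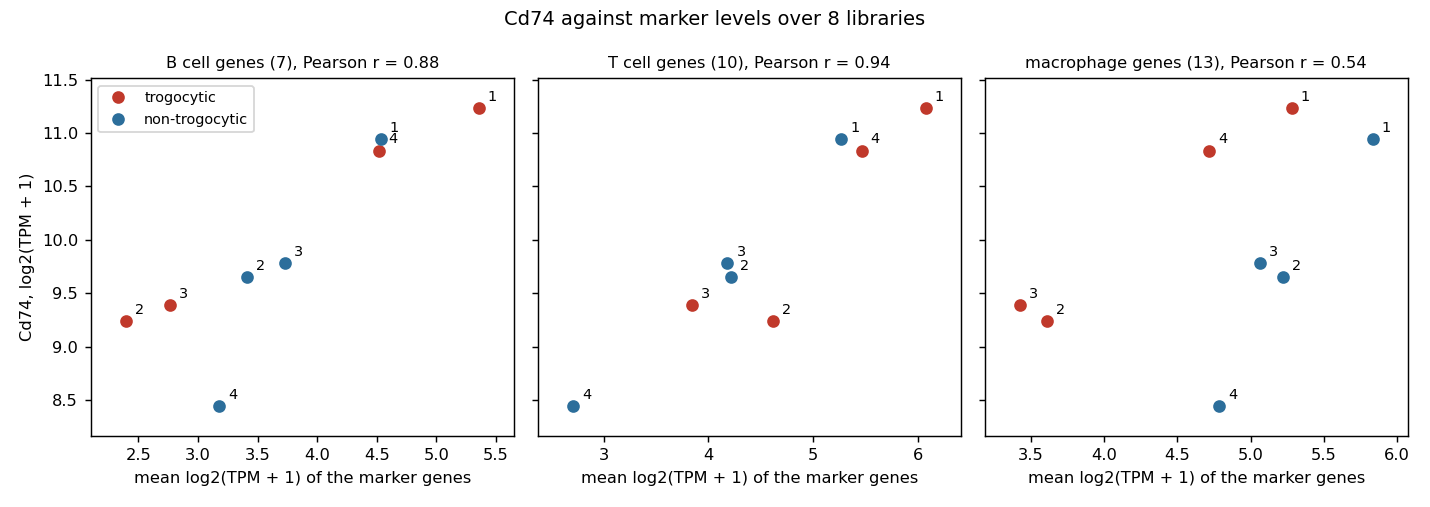
Cd74 in log2(TPM + 1) against the mean log2(TPM + 1) of B cell, T cell and macrophage marker genes, in trogocytic (red) and non-trogocytic (blue) libraries numbered by replicate, with Pearson's r over 8 libraries. In the macrophage panel the trogocytic libraries lie left of the non-trogocytic ones of like Cd74 level, and r is 0.54 against 0.88 for B cell markers.

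That offset was followed gene by gene. The fold changes of all 13 tested macrophage and monocyte markers lay below 0, with a median of -0.80, 4 at an unadjusted p below 0.05 and 0 called, whereas those of 7 of 9 class II genes lay above 0. Lyz2, the lysozyme of macrophages and neutrophils, stood at 3846, 1315, 1175 and 2999 TPM in trogocytic and 12057, 4920, 6060 and 2636 TPM in non-trogocytic co-cultures (log2 fold change -1.43 ± 0.48, unadjusted p = 0.0129, limma's adjusted p = 0.950). Its groups overlapped, through non-trogocytic replicate 4. The ratio of Cd74 to Lyz2 was 0.625, 0.458, 0.569 and 0.608 in trogocytic co-cultures, and 0.163, 0.163, 0.145 and 0.132 in non-trogocytic ones. All trogocytic libraries lay above all non-trogocytic ones, and the mean log2 difference was 1.90 ± 0.13 (SE), a 3.74-fold higher ratio. Ctss, cathepsin S, the protease that makes the last cleavage of the invariant chain, gave ratios of 0.811, 0.733, 0.742 and 0.901 in trogocytic and 0.249, 0.298, 0.234 and 0.214 in non-trogocytic co-cultures, which is 1.69 ± 0.12 on the log2 scale. The spread of these ratios within a group was small beside the several-fold spread of Cd74, Lyz2 and Ctss themselves.

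Ratios to other genes were set beside these. Of 11 macrophage and monocyte markers above 0 in all libraries, 5 gave a Cd74 ratio that was higher in every trogocytic than in every non-trogocytic library, against 1.51% of 9782 other genes. They included Cd68, a lysosomal glycoprotein (1.67 to 2.16 in trogocytic and 0.685 to 1.05 in non-trogocytic co-cultures), Ms4a7 (7.11 to 12.5 and, in non-trogocytic co-cultures, 2.95 to 6.78) and C1qb, a complement chain of tissue macrophages (33.9 to 116 and, in non-trogocytic co-cultures, 5.37 to 16.7). Of 7 B cell markers, 0 did so. The log2 difference lay above 0 for 8165 of the 9782 other genes (median 0.46) and for 5 of these 7 markers (median 0.41). The ratio of Cd74 to Cd79b, a chain of the B cell receptor complex and the most abundant of these markers, was 12.6 to 16.4 in trogocytic and 10.3 to 23.5 in non-trogocytic co-cultures, a log2 difference of -0.18 ± 0.30. That to Ebf1, a B cell transcription factor at a few TPM, differed by 2.07 ± 0.84 with groups that overlapped, as large as for Lyz2 with a wider error. For the other chains, H2-Aa gave 5 of 11 such ratios to macrophage markers (against 2.68% of all genes), H2-Ab1 1 of 11 (0.419%) and H2-Eb1 1 of 11 (0.726%). With B cell markers, 1 of 7 ratios separated the groups for H2-Aa and 1 of 7 for H2-Eb1, in both cases that to Ebf1, and 0 of 7 for H2-Ab1. Ratios to T cell markers went the other way. Of 9 T cell markers, the log2 difference of the Cd74 ratio lay above 0 for 0, with a median of -0.52. The Cd74 ratio to Cd3g was lower in every trogocytic than in every non-trogocytic library, as were those to 11 of 9782 other genes. For H2-Ab1, 2 of 9 T cell ratios were lower in this way, against 10 of 9782. The ratios were chosen after the values had been seen. Those to Lyz2 and Ctss rest more on these genes, with log2 fold changes of -1.43 and -1.22, than on Cd74, at 0.47. Exact permutation over the 8 libraries gave p = 0.0286 for Cd74 over Lyz2 and over Ctss, the smallest value that these groups allow. After Benjamini-Hochberg adjustment over 9782 genes the exact permutation p was 0.997 for both, so the ratios remain descriptions.

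**Figure D5:**
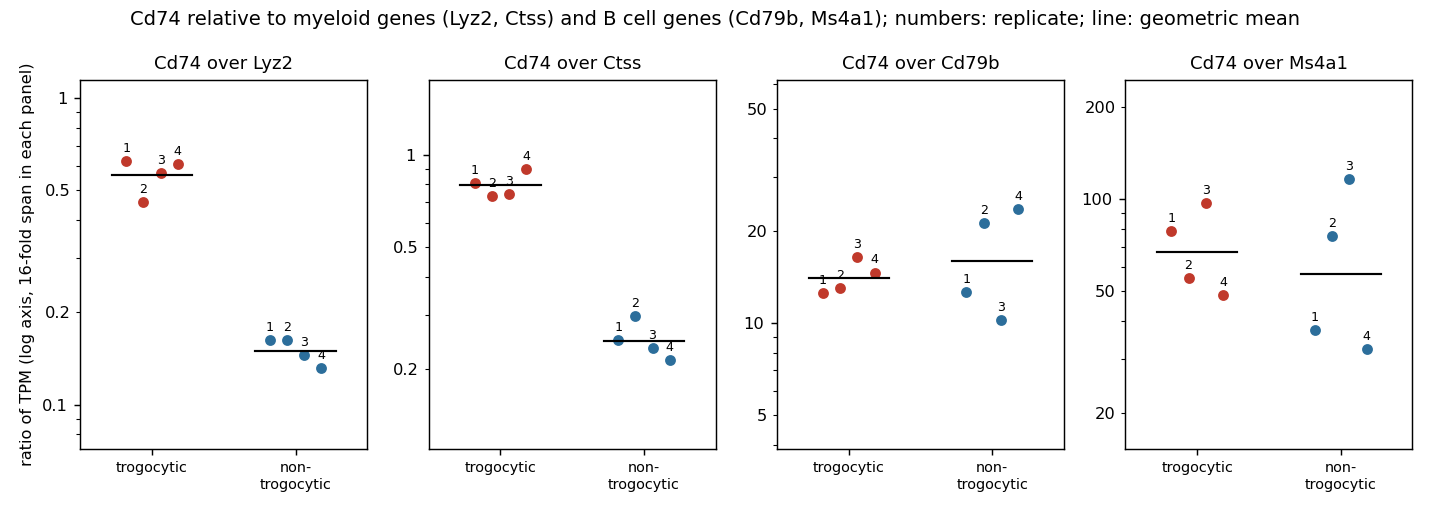
Ratio of Cd74 TPM to that of Lyz2, Ctss, Cd79b and Ms4a1 in trogocytic (red) and non-trogocytic (blue) libraries numbered by replicate, on log axes that each span a 16-fold range, with the geometric mean as a line. The groups separate over Lyz2 (0.458 to 0.625 in trogocytic, 0.132 to 0.163 in non-trogocytic libraries) and over Ctss, and overlap over the B cell genes Cd79b and Ms4a1.

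The offset was also fitted by limma over all genes, with the macrophage level of each library as a covariate. The fit uses the same libraries in which the offset was seen, so it is no independent test of it. The macrophage level itself was 3.43 to 5.28 in trogocytic and 4.78 to 5.83 in non-trogocytic co-cultures on the log2 scale. In this fit the log2 difference of trogocytic against non-trogocytic co-cultures was 1.76 ± 0.31 (SE) for Cd74. Its unadjusted p was 0.000220 and limma's adjusted p was 0.119. It was 1.98 ± 0.43 for H2-Ab1, 1.37 ± 0.33 for H2-Aa, 1.64 ± 0.53 for H2-Eb1, 1.82 ± 0.56 for H2-Ob and 3.06 ± 0.92 for H2-Oa. These 6 of 9 members had an unadjusted p below 0.05, against 9.43% of all tested genes in the same fit. None was called after adjustment, against 7 of all tested genes (0.0612%). With the B cell level as the covariate, none was called either.

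The rest of the presentation pathway was read from lists of genes, in which no gene was called. Proteases and helpers that process the invariant chain and antigen had log2 fold changes below 0 for 7 of 7 and a median of -1.02, against 0.01 over all tested genes. Ctss stood at 2965, 821, 902 and 2026 TPM in trogocytic and 7883, 2690, 3764 and 1624 TPM in non-trogocytic co-cultures (-1.22 ± 0.51, limma's adjusted p = 0.9998). Ifi30, the thiol reductase that opens disulfides of antigens, stood at 8.96, 41.5, 26.7 and 13.6 TPM in trogocytic and 73.0, 28.6, 47.5 and 51.1 TPM in non-trogocytic co-cultures (-1.25 ± 0.47, limma's adjusted p = 0.9998), and Ctsb, cathepsin B, had -1.02 ± 0.48. Macrophages are rich in these proteases, and the macrophage markers lay below 0 as well, as given above; their part in the list was not tested. T cell markers lay the other way, above 0 for 10 of 10 with a median of 0.91, and B cell markers were above 0 for 4 of 7 with a median of 0.21.

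Interferon gamma, the main inducer of Ciita outside B cells, was seen in 1 library. Ifng was 6.17 TPM in trogocytic replicate 1 and was listed at 0 in the other 7 libraries. The 6 tested genes of its receptor and signalling pathway had a median of -0.27, with Ifngr1, a receptor chain, at 0.12 ± 0.38 on the log2 scale (SE, limma's adjusted p = 0.9998). Of 5 tested target genes, 1 lay above 0, with a median of -0.84. Irgm1, a GTPase of this response, stood at 3.22, 1.10, 18.6 and 14.0 TPM in trogocytic and 55.3, 24.7, 20.3 and 20.6 TPM in non-trogocytic co-cultures. Its groups did not overlap, against 2.68% of all tested genes, and it did not pass the test (-1.999 ± 0.70, limma's adjusted p = 0.969). Igtp, another such GTPase, lay at 0.63 ± 0.97, a value smaller than its SE. Whether the targets differed from each other was not tested.

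Among 8 tested promoter factors the median was -0.20. Nfya, a subunit of NF-Y, had 1.04 ± 0.53 and Rfxap, a subunit of RFX, had 0.82 ± 0.42, while Nfyb, the most abundant of the list at 73.1 ± 31.2 TPM in trogocytic and 78.0 ± 24.8 TPM in non-trogocytic co-cultures (SD, n = 4 each), had -0.15 ± 0.36 (log2, SE, limma's adjusted p = 0.9998 for each). Of the genes that govern the turnover of surface class II, March1, the ubiquitin ligase that removes it, had -1.81 ± 1.19, and Cd83, which protects it from March1, had 0.24 ± 0.52. Of 6 tested class I presentation genes 1 lay above 0, with a median of -0.33. B2m, the class I light chain, averaged 1614 ± 602 TPM in trogocytic and 1887 ± 1333 TPM in non-trogocytic co-cultures (SD, n = 4 each), with a fold change of -0.05 ± 0.42.

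Partners of class II on T cells were scarce as transcripts. Cd4, the coreceptor of class II whose protein was used in the sort, was at most 0.779 TPM in trogocytic and 1.46 TPM in non-trogocytic co-cultures and did not pass the filter. Lag3, an inhibitory receptor for class II, was listed at 0 in all libraries. Cd86, a costimulator on presenting cells, stood at 53.1, 14.4, 16.1 and 41.0 TPM in trogocytic and 38.6, 16.5, 7.06 and 17.1 TPM in non-trogocytic co-cultures (0.64 ± 0.56, limma's adjusted p = 0.9998), highest in the same 3 libraries as Cd74. Cd40 had 0.33 ± 0.67, and these were the only 2 of 6 genes in that list that passed the filter.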

How the data were processed

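Polyadenylated RNA of 8 co-cultures was sequenced as paired reads of 100 bp from a low-input kit, per the labels. HISAT2, StringTie 1.3.3, DESeq version 2 and the builds GRCm38 and mm10 are listed in the submitters' processing notes. Each deposited table gives, per the file headers, a coverage (signal), an FPKM and a TPM per gene. The deposited coverage is read depth with no scaling, the deposited FPKM is per length and per aligned bases, and the deposited TPM sums to an equal total in each library. Counts were not used here, and which tool made which step is not given in the sources used here. Coverage over FPKM gave the aligned bases.

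TPM was summed per gene ID. Genes with at least 1 TPM in 4 or more libraries went into a two-sided limma fit on log2(TPM + 1) that models a mean-variance trend (limma 3.58.1 in R 4.3.3). They were called at an adjusted p below 0.05 (Benjamini-Hochberg over all of them). A fold change on this scale understates the change of low genes. Relations used exact permutation over all pairings of 8 libraries. Ratios used genes above 0 in all libraries. Promoter sequences came from a RefSeq table of GRCm38.p6 and transcript comparisons from GENCODE M21, aligned with Biopython 1.88. The limma fit and the exact permutation of relations were checked on simulated data.

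The members, marker lists and pathway lists were chosen with earlier results of these data known. Named are all 10 members, of each pathway list up to 4 tested genes (2 by smallest p, 2 by highest mean TPM), and the 5 genes most like Cd74 and H2-Ab1. Of the cell type lists, the dendritic cell markers at 0 throughout are named above. Csf3r of the neutrophil list and Tnfrsf17 of the plasma cell list were also at 0 in all libraries. Other genes are named where a count, sum or ratio turns on them or to show a level beside it, and were chosen after their values were seen. Alternatives covered unit, pseudocount, filter, scaling, variance model, replicate block, marker covariates and each library left out.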

Additional observations from a re-analysis of the deposited data

Results flagged for a closer look

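Within groups of 4 libraries, a library was taken as standing apart when its gap to the nearest other library, divided by the range of the group, passed Dixon's 95% critical value for 4 values. Over the 10 genes and both groups, 2 of 20 sets of 4 held such a library. The nominal chance rate of about 1 in 20 is for normally distributed values and does not hold for sets with values of 0. A single library above 0 among libraries at 0 is always flagged. H2-Oa was 2.30 TPM in non-trogocytic replicate 2 and listed at 0 in the other 3 non-trogocytic libraries. Ciita was 1.54 TPM in trogocytic replicate 1, with the next trogocytic library at 0.0623 TPM. Both genes were low, and trogocytic replicate 1 was also the library with the highest B cell level and the only one with Ifng.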

How the results depend on the processing

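No class II member was called under any of the alternatives run. The unadjusted limma p of H2-Oa was 0.0581 with a pseudocount of 0.1, 0.105 with 0.01 and 0.0505 without the filter. It was 0.0613 to 0.0713 without trogocytic replicate 1, 2 or 4, and 0.000511 without trogocytic replicate 3. Without non-trogocytic replicate 1, 3 or 4 it was 0.0590 to 0.0612, and 0.0140 without non-trogocytic replicate 2. Over all genes 6 were called, against 2 with a pseudocount of 0.01, 1 without the filter, 1 without the mean-variance trend, 3 with the B cell level as a covariate, 7 with the macrophage level, 0 without the first replicate of both groups and 0 to 3 with 1 library left out (0 without trogocytic replicate 1, 2 or 3 or non-trogocytic replicate 3). Fits with a replicate block called 0 genes, with and without median-of-ratios scaling. Deviations from the group means correlated between same-numbered libraries at 0.24, 0.0054, 0.062 and -0.093, and 3 of 8 libraries correlated best with their own number, so the numbers were not taken as pairs. Signs of fold changes turned for H2-DMa (0.39) and H2-DMb2 (1.33) with the macrophage level as a covariate and for H2-DMb1 (-0.41) without both first replicates. With 1 library left out, the fold change ran from -0.34 to 0.84 for H2-Ab1 (below 0 without trogocytic replicate 1 or 4 or non-trogocytic replicate 4), from -0.22 to 0.91 for H2-Eb1 (below 0 without trogocytic replicate 1) and from -0.11 to 0.91 for H2-DMb1 (below 0 without non-trogocytic replicate 1). It kept its sign for the others, from 0.05 (without non-trogocytic replicate 4) to 0.88 (without non-trogocytic replicate 1) for Cd74 and 0.20 to 0.80 for H2-Aa without the same libraries, 0.11 (without trogocytic replicate 1) to 0.98 (without non-trogocytic replicate 1) for H2-Ob, -1.93 (without trogocytic replicate 4) to -0.22 (without trogocytic replicate 3) for H2-DMa, -1.60 to -0.15 for H2-DMb2 without the same libraries, and 1.71 to 2.89 for H2-Oa. The sign of r turned with macrophage markers for H2-Oa (0.55 with centred groups) and H2-Ob (-0.0015 without both first replicates). With dendritic markers it turned without both first replicates for Cd74 (-0.086), H2-Aa (-0.065), H2-Ab1 (-0.21), H2-Eb1 (-0.36) and H2-Oa (-0.32), with centred groups for H2-DMb2 (0.012) and H2-Oa (-0.019), and with summed TPM for H2-Oa (-0.084). With 1 library left out, r with macrophage markers ran from -0.022 to 0.69 for H2-DMb1 and from -0.45 to 0.16 for H2-Oa, and r with dendritic markers from -0.043 to 0.65 for Cd74, -0.10 to 0.68 for H2-Aa, -0.17 to 0.51 for H2-Ab1, -0.26 to 0.53 for H2-Eb1, -0.45 to 0.018 for H2-DMa, -0.25 to 0.24 for H2-DMb2 and -0.32 to 0.47 for H2-Oa. The log2 difference of the Cd74 to Cd79b ratio ran from -0.39 to 0.0055, that of Cd74 to Lyz2 from 1.84 to 2.00 and that of Cd74 to Ctss from 1.62 to 1.78, alternatives added after the data had been seen. The cause was not tested for any of these. Depth limits H2-Oa and Ciita most, since a few TPM rest on few reads.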
